A study of Homo sapiens with 20 samples.

Results

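The 8 bulk RNA-seq libraries of day 8 of spontaneous differentiation were compared by the number that ends each library's name, which is 5 in 4 libraries and 8 in the other 4. They are 8 of the 20 samples of the series. HUES8, an established human embryonic stem cell line that here carries an inducible Cas9, was grown as spheroids, brought to definitive endoderm with activin A and CHIR99021 and then left to differentiate in basal medium. Each of 4 conditions has 1 library of either number: untreated wild type (WT), WT with H2O2 (WT_H2O2), GPX2 knockout (KO), and KO with sodium selenite (KO_Se). GPX2 is a selenium-dependent glutathione peroxidase of gut epithelium, and it was deleted with 3 guides. The H2O2 dose is 10 nM in the sample labels and 10 µM in the study's methods, and selenite was given at 100 pM. Both untreated KO libraries are headed ko1, whereas the selenite libraries are headed ko1 with number 5 and ko2 with number 8. The sample titles of the untreated KO are ko1 and ko2. The WT and WT_H2O2 libraries are headed wt1 with number 5 and wt2 with number 8. The study names the clonal lines KO1, KO2 and KO3, and gives KO1 for the untreated KO RNA-seq of this day. No source used here names the line of the selenite libraries beyond their headers. For KO_Se a difference of line cannot be told apart from the number. For WT and WT_H2O2, whatever wt1 and wt2 stand for cannot be told apart from the number either.

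No source used here says what the numbers 5 and 8 stand for. If each number is 1 run of the experiment, there is 1 run of either kind, and the p-values below measure how alike the 4 conditions show the difference, not how alike further runs would be. The comparison asks how far the cultures of either number had left the pluripotent state and moved towards hepatic endoderm. It was made for all genes with the condition as a block.

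Pluripotent stem cells are held by a circuit of transcription factors around OCT4 (gene POU5F1), NANOG and SOX2, with NODAL and FGF signals feeding into it. Activin and WNT signals drive such cells through a mesendoderm stage, with EOMES and MIXL1, into definitive endoderm, with SOX17, CXCR4 and FOXA2. Hepatic endoderm keeps the FOXA, GATA and HNF4 factors and begins to make the proteins that liver secretes into blood, AFP and the fibrinogens among them.

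The libraries held 4234408 to 8617728 counts, with 3.11 to 3.71% on mitochondrial genes and 5.57 to 7.59% on their 10 highest genes. GPX2 itself, the check on the knockout, stood at 98.0, 139, 26.1 and 37.8 CPM in number 5 and 117, 118, 25.2 and 40.5 CPM in number 8, in the order WT, WT_H2O2, KO and KO_Se that all lists of levels below keep. CPM are counts scaled to library size by TMM. The KO and KO_Se libraries were the lowest in both numbers but kept GPX2 counts, and GPX2 did not pass between the numbers (log2FC of 0.02, adjusted p = 0.923).

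The first principal component of log2 CPM over all tested genes held 55.5% of the variance and parted the numbers. The libraries numbered 5 had scores of -9.31 (WT), -55.1 (WT_H2O2), -37.3 (KO) and -34.1 (KO_Se), and those numbered 8 had 42.3, 24.9, 31.4 and 37.1. WT number 5 lay nearest to the number 8 side. The second component held 15.0%, with WT number 5 at -36.7 and WT_H2O2 number 5 at 24.0 as its ends. Over single genes the number took a median of 34.7% and the 4 conditions together 27.0% of the sum of squares. There are more conditions than numbers, so by chance alone the conditions would take the larger share.

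**Figure D1:**
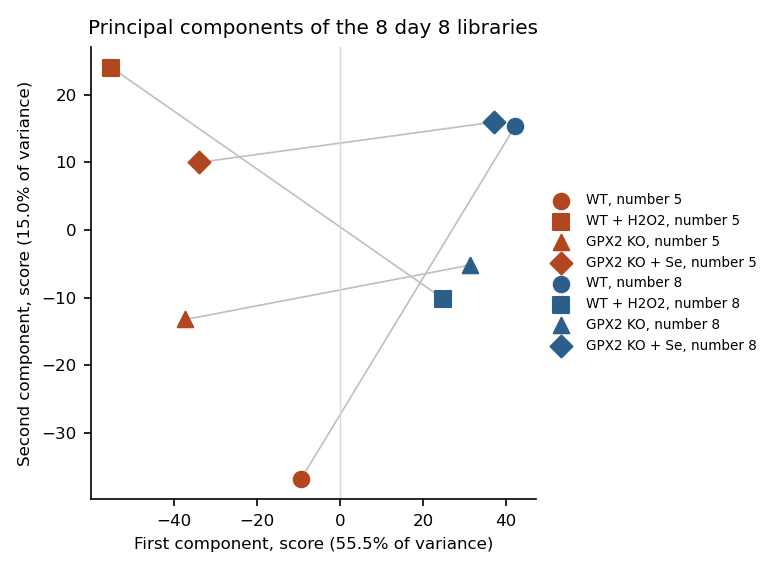
Principal component scores of the 8 day 8 libraries, first component (55.5% of variance) across and second (15.0%) up, with colour for the library number, symbol for the condition and a grey line joining the 2 libraries of a condition. The 4 libraries numbered 5 lie left of 0 and the 4 numbered 8 right of it, with WT number 5 nearest to 0 at -9.31.

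Of 13517 genes tested, 3393 (25.1%) differed between the numbers at an adjusted p under 0.05. Of these 1592 (11.8%) were higher and 1801 (13.3%) lower in the libraries numbered 8. The lower genes reached further: 196 of them against 22 of the higher genes changed by at least 2 log2 units, and 84 against 3 by at least 3. A change of at least 1 log2 unit was reached by 940 of the 3393 (6.95% of the genes tested). The 4 libraries of either number did not overlap in 3708 genes (27.4%). Of the called genes, 1552 of the 1592 higher and 1752 of the 1801 lower went the same way in all 4 conditions. Over all 13517 genes tested 6096 did so, and 2792 of the 10124 that missed the threshold. The calls come from the same libraries and favour such genes, so this agreement is no separate support. In bulk libraries fewer cells of a type and less RNA per cell cannot be told apart, and this holds for every level given below.

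The count rests on the KO and KO_Se libraries more than on the WT ones. Leaving out 1 library also takes away what its partner says of the number, since the condition is a block. Without number 5 or number 8 of KO, 1431 and 1547 genes were called, and without those of KO_Se, 1648 and 1714. Without WT_H2O2 libraries it was 2388 and 2470, and without WT libraries 4154 and 4133. The called genes that could be tested there kept their direction in each of these 8 fits.

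**Figure D2:**
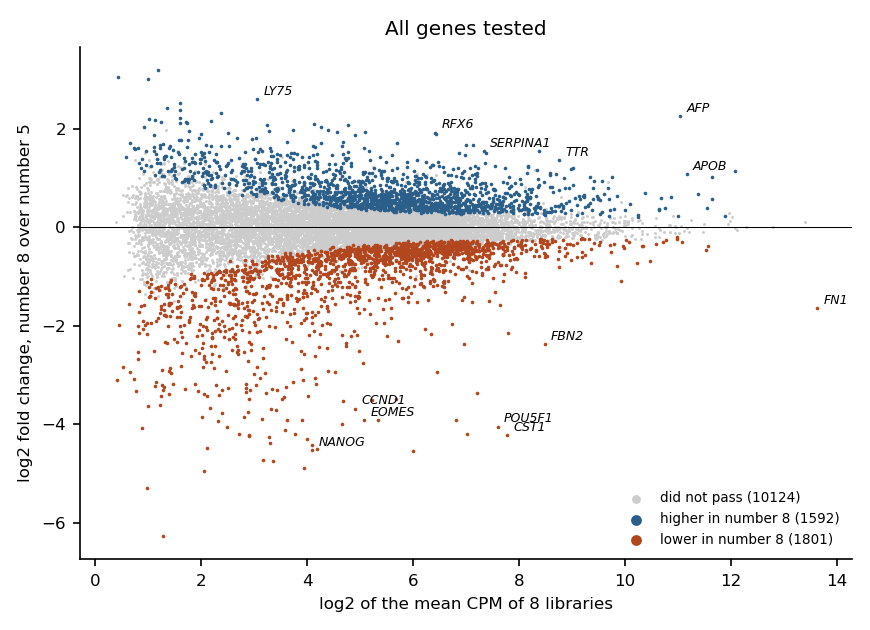
Each point is 1 of the 13517 genes tested, with the log2 of its mean CPM over 8 libraries across and its log2 fold change, number 8 over number 5, up. The 1801 genes lower in number 8 reach down to -6.26, and the 1592 higher ones up to 3.18.

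Most pluripotency genes tested were lower in number 8. Of 45 genes of this list 35 were tested, of which 27 fell, 0 rose and 8 missed the threshold. The median log2 fold change (log2FC, number 8 over 5) was -1.58, against 0.01 over all genes tested. With 1 library left out 23 to 29 fell, and in the WT and WT_H2O2 libraries alone 8 of 34 tested. POU5F1, which encodes OCT4, stood at 64.2, 668, 235 and 486 CPM in number 5 and 2.76, 60.5, 20.5 and 15.5 CPM in number 8. The numbers did not overlap, but WT number 5 and WT_H2O2 number 8 were close to one another (log2FC of -4.04, SE 0.25, adjusted p = 6.07e-05). Per length, POU5F1 ranked 222 in number 5 and 4609 in number 8 among genes of the nuclear genome.

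NANOG, its partner in the core circuit, stood at 3.32, 61.9, 17.5 and 48.0 CPM in number 5 and 0, 4.70, 0.952 and 0.817 CPM in number 8. WT number 5 lay below WT_H2O2 number 8, and the numbers overlapped at that point (log2FC of -4.53, SE 0.37, adjusted p = 1.75e-04). SOX2, the third core factor, had 2.77, 38.4, 12.7 and 35.6 CPM in number 5 and 0, 5.03, 0.952 and 0.350 CPM in number 8, and overlapped in the same way (log2FC of -4.12, SE 0.52, adjusted p = 9.56e-04). PRDM14, which holds back differentiation, fell by 4.74 log2 units. ESRG, a long noncoding RNA of stem cells, fell by 4.55 log2 units, with 9.41 to 219 CPM in number 5 and 0 to 20.0 CPM in number 8.

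TDGF1, the NODAL co-receptor, stood at 47.0 ± 28.9 CPM in number 5 and 4.03 ± 2.20 CPM in number 8 (SD, n = 4), and fell by 3.54 log2 units. DNMT3B, a DNA methyltransferase high in stem cells, had 128, 442, 215 and 446 CPM in number 5 and 83.3, 136, 82.8 and 74.0 CPM in number 8. It fell by 1.58 log2 units, and WT number 5 lay within the range of number 8. L1TD1, an RNA-binding protein of stem cells, and OTX2, a homeobox factor, fell by 1.49 and 2.11 log2 units. DPPA4 fell by 1.17 log2 units, a call lost without either KO_Se library (adjusted p of up to 0.0578).

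Other genes of stem cells missed the threshold at high levels. LIN28A, which blocks let-7 processing, had 745 ± 83.9 CPM in number 5 and 641 ± 79.0 CPM in number 8 (SD, n = 4, log2FC of -0.22, adjusted p = 0.0933). With a correction for transcript GC content, chosen after the data were seen, LIN28A passed with a log2FC of -0.26 (adjusted p = 0.0457). ZFP42, a zinc finger gene often used as a stem cell marker, had 190.3 ± 14.9 CPM in number 5 and 195 ± 14.6 CPM in number 8 (SD, n = 4, log2FC of 0.03, adjusted p = 0.799). LEFTY1, a NODAL inhibitor, and FGF4 were among 10 listed genes too low to be tested, with 0.369 to 8.07 and 0.554 to 14.7 CPM in number 5 and 0 to 1.01 and 0 to 1.68 CPM in number 8.

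Most mesendoderm genes tested fell as well. Of 17 listed 10 were tested, of which 9 fell, 0 rose and 1, FGF17 (log2FC of 0.11), missed the threshold. The median log2FC was -3.21. In the WT and WT_H2O2 libraries alone 2 of 9 tested fell. EOMES, the T-box factor that opens endoderm formation, stood at 15.0, 103, 43.0 and 90.6 CPM in number 5 and 0.184, 11.2, 1.43 and 5.84 CPM in number 8. All 4 libraries of number 5 were above all 4 of number 8 (log2FC of -3.91, SE 0.28, adjusted p = 1.07e-04). MIXL1, a homeobox factor of the primitive streak, fell by 3.24, SP5, a target of WNT, by 3.91, and CER1, a secreted inhibitor of NODAL, by 3.70 log2 units. WNT3, a ligand of the streak, fell by 1.19 log2 units, with its call lost without either WT_H2O2, either KO or either KO_Se library (adjusted p of up to 0.224). TBXT, the streak factor brachyury, was too low to be tested, with 1.11 to 11.9 CPM in number 5 and 0 to 1.19 CPM in number 8.

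Ligands, inhibitors and response genes of the signals that act on these states moved as follows. NODAL, the ligand, stood at 9.60, 63.8, 27.2 and 29.5 CPM in number 5 and 2.02, 6.20, 3.33 and 2.22 CPM in number 8, without overlap (log2FC of -3.19, SE 0.23, adjusted p = 1.15e-04). In the NODAL and TGF-β list 9 of 18 tested genes fell, 3 rose and 6 missed the threshold, while 5 to 6 fell and 1 rose without a KO library and 6 fell and 2 rose without a KO_Se library. GDF3, a related ligand, fell by 2.58 log2 units. PMEPA1, a feedback inhibitor, fell by 1.39 log2 units, a call lost without the number 5 KO or either KO_Se library (adjusted p of up to 0.0752). INHBA, which encodes the activin A subunit, rose by 1.32 log2 units, a call lost without either KO or either KO_Se library (adjusted p of up to 0.141). The receptor ACVR1B (log2FC of -0.17, adjusted p = 0.207) and the inhibitor SMAD7 (log2FC of -0.18, adjusted p = 0.476) missed the threshold.

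Most FGF signalling genes tested fell in number 8. Of 17 tested 12 fell, 1 rose and 4 missed the threshold, and the median log2FC was -1.48. In the WT and WT_H2O2 libraries alone 3 of 16 tested fell and 0 rose. The ERK feedback genes DUSP6, SPRY4 and SPRY1 fell by 3.15, 2.91 and 2.51, and the ETS factors ETV5 and ETV4 by 3.44 and 2.60 log2 units. DUSP6 stood at 17.5, 31.3, 19.4 and 27.2 CPM in number 5 and 0.368, 3.35, 3.09 and 4.32 CPM in number 8. Every library of number 5 was above every library of number 8. The receptors FGFR4 (log2FC of 0.14, adjusted p = 0.316) and FGFR3 (log2FC of -0.06, adjusted p = 0.724) missed the threshold, and FGFR4 passed with the GC correction (log2FC of 0.42, adjusted p = 0.00349).

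In the WNT list 10 of 21 tested genes fell, 2 rose and 9 missed the threshold. SFRP2, a secreted WNT binder, fell by 4.43, and the feedback inhibitors NOTUM and NKD1 by 2.98 and 1.73 log2 units. LGR5, a receptor for R-spondin, fell by 2.58 log2 units, with 7.63 to 14.9 CPM in number 5 and 1.65 to 2.10 CPM in number 8, with no overlap. AXIN2, a usual readout of WNT signalling, had 18.8 to 28.9 CPM in number 5 and 14.9 to 26.6 CPM in number 8 (log2FC of -0.07, adjusted p = 0.830).

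In the BMP list 6 of 21 fell, 0 rose and 15 missed the threshold, while 3 fell without any 1 of the KO or KO_Se libraries. The share of this list called, 28.6%, was near the 25.1% of all genes tested. BMPER, which binds BMPs outside the cell, fell by 3.06, and the ligands BMP4 and BMP7 by 0.75 and 0.74 log2 units. The response gene ID1 fell by 0.47 log2 units, a call lost without either WT_H2O2, either KO or either KO_Se library (adjusted p of up to 0.110). In the retinoic acid list 4 of 12 rose and 3 fell, and 2 rose without any 1 of the KO or KO_Se libraries. RBP4, the carrier of retinol in blood, rose by 1.19, and CRABP1, a binding protein inside the cell, fell by 3.31 log2 units.

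The definitive endoderm list was split. Of 22 genes 20 were tested, of which 5 rose, 5 fell and 10 missed the threshold. CXCR4, the chemokine receptor used to sort definitive endoderm, stood at 12.9, 52.9, 32.4 and 29.5 CPM in number 5 and 5.51, 7.38, 2.38 and 6.65 CPM in number 8, without overlap (log2FC of -2.43, SE 0.32, adjusted p = 0.00111). SOX17, a core endoderm factor, fell by 0.45 log2 units (adjusted p = 0.0210), with 59.7 to 86.3 CPM in number 5 and 43.9 to 61.6 CPM in number 8. This call was lost without either WT_H2O2 or either KO library (adjusted p of up to 0.115), and with the GC correction (log2FC of -0.28, adjusted p = 0.120). FRZB, a secreted WNT inhibitor, rose by 1.09 log2 units.

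HHEX, a homeobox factor of anterior endoderm, stood at 4.61, 39.1, 6.70 and 14.4 CPM in number 5 and 8.64, 6.04, 2.14 and 11.3 CPM in number 8, overlapping widely (log2FC of -0.93, adjusted p = 0.204). FOXA2, which opens chromatin in endoderm, had 120.2 to 158 CPM in number 5 and 129 to 150.3 CPM in number 8 (log2FC of 0.03, adjusted p = 0.872). CLDN6, a tight junction protein of early epithelia, missed the threshold too (log2FC of -0.10, adjusted p = 0.460), as did EPCAM, an epithelial adhesion protein (log2FC of 0.16, adjusted p = 0.229).

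With all 8 libraries, some hepatic transcription factors rose, and the others missed the threshold. Of 24 listed 20 were tested, of which 8 rose, 0 fell and 12 missed the threshold, with a median log2FC of 0.27. Without either KO library 4 rose, and without either KO_Se library 5. Without either WT library 8 rose and 2 fell, and 1 fell without WT_H2O2 number 8 or KO number 8. In the WT and WT_H2O2 libraries alone 0 rose and 0 fell. HNF4A, the nuclear receptor at the centre of the liver programme, stood at 479, 437, 575 and 499 CPM in number 5 and 509, 491, 518 and 542 CPM in number 8. Its numbers overlapped throughout (log2FC of 0.06, adjusted p = 0.643). GATA4, a factor of early endoderm (log2FC of -0.02, adjusted p = 0.946), missed the threshold as well.

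CEBPA, which drives liver maturation, had 15.5, 22.1, 16.6 and 41.1 CPM in number 5 and 30.9, 35.9, 47.6 and 44.5 CPM in number 8. KO_Se number 5 reached the range of number 8. The gene rose (log2FC of 0.80, SE 0.21, adjusted p = 0.0225), a call lost without either KO library (adjusted p of up to 0.109). FOXA1, the close relative of FOXA2, rose by 0.88 log2 units with no overlap, with 57.9 to 63.2 CPM in number 5 and 102 to 129 CPM in number 8. HNF4G rose by 1.02 and NR5A2, a nuclear receptor of liver and pancreas, by 0.87 log2 units. GATA6, a partner of GATA4, rose by 0.40 log2 units, with its call lost without either KO_Se library (adjusted p of up to 0.0647). ONECUT1, a factor of early liver and pancreas, rose by 1.27 log2 units at low levels, a call lost without either WT, either KO or either KO_Se library (adjusted p of up to 0.164).

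Genes for proteins that liver secretes into blood rose in part. Of 33 listed 24 were tested, of which 17 rose, 0 fell and 7 missed the threshold, with a median log2FC of 1.01. Only 7 and 8 rose without KO number 5 and KO number 8, and 4 in the WT and WT_H2O2 libraries alone. AFP, the fetal counterpart of albumin, stood at 499, 480.4, 559 and 1602 CPM in number 5 and 3182, 1945, 4121 and 4435 CPM in number 8. The numbers did not overlap, and KO_Se was the highest library of both (log2FC of 2.26, SE 0.21, adjusted p = 2.75e-04). SERPINA1, the antitrypsin of plasma, stood at 38.0, 77.8, 47.1 and 211 CPM in number 5 and 177, 165, 254 and 318 CPM in number 8, with KO_Se number 5 inside the range of number 8 (log2FC of 1.55, SE 0.28, adjusted p = 0.00480). TTR, which carries thyroid hormone and retinol, had 289, 140.0, 232 and 336 CPM in number 5 and 706, 508, 719 and 531 CPM in number 8, without overlap (log2FC of 1.36, SE 0.17, adjusted p = 9.42e-04). Per length, AFP ranked 89 in number 5 and 10 in number 8 among genes of the nuclear genome. ALB, albumin itself, had 6.89 to 16.1 CPM in number 5 and 16.4 to 29.4 CPM in number 8, and rose by 1.00 log2 units, a call lost without either KO or either KO_Se library (adjusted p of up to 0.0870).

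The fibrinogen chains FGB, FGA and FGG, which assemble into 1 clotting protein, rose by 1.14, 1.01 and 0.98 log2 units. FGB stood at 3354, 1204, 2819 and 3940.0 CPM in number 5 and 4829, 6050.5, 6391 and 5810.1 CPM in number 8. No library of number 5 reached those of number 8, and WT_H2O2 number 5 was the lowest. FGA had 475, 374, 541 and 958 CPM in number 5 and 1020.1, 827, 1326 and 1365 CPM in number 8, with KO_Se number 5 inside the range of number 8. The call of FGB was lost without either KO library (adjusted p of up to 0.0686), and that of FGG without either KO library (adjusted p of up to 0.0549). AGT, the angiotensin precursor, rose by 1.54 log2 units, a call lost without either KO library (adjusted p of up to 0.0528). AHSG, fetuin, rose by 1.80 log2 units, a call lost without either KO or either KO_Se library (adjusted p of up to 0.101). Coagulation factor F10 (log2FC of 0.32, adjusted p = 0.0632) and hemopexin, HPX (log2FC of -0.35, adjusted p = 0.341), missed the threshold, and F10 passed with the GC correction (log2FC of 0.52, adjusted p = 0.00535).

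Among the apolipoproteins, which carry blood lipids, 4 of 8 tested rose, 0 fell and 4 missed the threshold, and 2 rose without either KO library. APOB, the backbone of VLDL and LDL, stood at 1518, 1146, 1253 and 2082 CPM in number 5 and 2729, 3096, 2697 and 3860.0 CPM in number 8, without overlap (log2FC of 1.07, SE 0.10, adjusted p = 2.75e-04). APOC1 rose by 0.86 log2 units. APOA4 rose by 1.497 log2 units, a call lost without either KO library (adjusted p of up to 0.0875). APOA2 rose by 0.76 log2 units, a call lost without either WT_H2O2 or either KO library (adjusted p of up to 0.119). APOA1 of HDL, which ranked 2 per length in both numbers, stood at 3856 ± 623 CPM in number 5 and 4008 ± 505 CPM in number 8 (SD, n = 4, log2FC of 0.06, adjusted p = 0.607), and APOE missed the threshold as well (log2FC of 0.15, adjusted p = 0.269). With the GC correction APOA1 and APOE passed with a log2FC of 0.35 and 0.57 (adjusted p = 0.00630 and 0.00122).

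Promoters were given for 20 of the 32 anchor genes, a set of markers of these states, and the others were not searched. The given ones were searched on both strands for 5 short motifs: the octamer ATGCAAAT, HNF1 GTTAATNAT, HNF4 CAAAGTCCA, forkhead TGTTTAC and the TATA box TATAAA. The called anchor gene APOA2, with a smaller change than those shown, held forkhead letters at -42 to -36 on the other strand and is not shown. The other called anchor genes with any of the motifs wholly before the start are shown, since they place these letters beside genes that moved. Each is the 250 bases before the RefSeq start (GRCh38.p14), 5′ to 3′ on the strand of the gene, with the motif in capitals. AFP lies at chr4:73435971-73436220 (plus strand) and holds HNF1 and TATA box letters. FGA lies at chr4:154590743-154590992 (minus) and holds HNF1 letters on the other strand. CEBPA lies at chr19:33302535-33302784 (minus) and CXCR4 at chr2:136118150-136118399 (minus), where TATA boxes of both strands overlap.
AFP: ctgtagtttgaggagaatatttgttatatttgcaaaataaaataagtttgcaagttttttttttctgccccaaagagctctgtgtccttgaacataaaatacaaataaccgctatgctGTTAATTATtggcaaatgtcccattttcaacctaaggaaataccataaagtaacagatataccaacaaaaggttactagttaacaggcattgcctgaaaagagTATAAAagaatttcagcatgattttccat
FGA: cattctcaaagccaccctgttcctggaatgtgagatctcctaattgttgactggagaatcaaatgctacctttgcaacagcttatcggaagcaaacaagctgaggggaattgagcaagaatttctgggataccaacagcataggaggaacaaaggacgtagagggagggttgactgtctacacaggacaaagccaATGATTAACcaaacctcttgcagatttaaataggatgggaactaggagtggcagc
CEBPA: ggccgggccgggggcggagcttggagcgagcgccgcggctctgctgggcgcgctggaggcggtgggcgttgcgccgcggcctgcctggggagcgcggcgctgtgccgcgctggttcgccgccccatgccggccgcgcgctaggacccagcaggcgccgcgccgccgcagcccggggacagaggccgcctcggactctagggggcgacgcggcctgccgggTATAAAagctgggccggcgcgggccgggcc
CXCR4: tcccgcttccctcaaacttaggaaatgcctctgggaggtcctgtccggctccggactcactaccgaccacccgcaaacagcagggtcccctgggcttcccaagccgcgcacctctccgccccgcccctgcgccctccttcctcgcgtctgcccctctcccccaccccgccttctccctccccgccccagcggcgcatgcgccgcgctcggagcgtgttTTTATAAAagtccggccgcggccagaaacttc

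The HNF1 letters lay at -132 to -124 in AFP and at -55 to -47 in FGA, counted from the start. Promoters were given for 10503 of the genes tested. Of these, 16 of 1254 genes higher in number 8 (1.28%), 5 of 1404 lower (0.356%) and 23 of 7845 that missed the threshold (0.293%) held the HNF1 letters in their 300 bases, and so did 205 of all 27195 promoters (0.754%). The octamer was held by 1.75%, 1.35%, 1.11% and 1.80% of the same sets, and the TATA box by 7.42%, 5.98%, 4.95% and 11.97%. HNF4 letters stood in 6 promoters of higher genes (0.478%), 2 of lower (0.142%) and 24 that missed the threshold (0.306%), against 0.360% of all promoters. Forkhead letters stood in 2.07%, 1.92% and 2.37% of these sets, against 3.41% of all promoters.

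Primitive and visceral endoderm of the early embryo share many genes with fetal liver and lay down basement membrane. Of 21 tested on this list 9 rose, 1 fell and 11 missed the threshold, with a median log2FC of 0.34. SPARC, a matrix glycoprotein, stood at 2657, 1497, 1947 and 2529 CPM in number 5 and 4620.5, 3886, 4284 and 4289 CPM in number 8, and no library of number 5 reached number 8 (log2FC of 1.02, SE 0.10, adjusted p = 3.80e-04). The laminin chains LAMB1 and LAMA1 rose by 0.67 and 0.62 log2 units. PODXL, a sialomucin of stem cells and epithelia, fell by 0.69 log2 units. VIL1, villin, missed the threshold (adjusted p = 0.988).

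The matrix list as a whole was split, with 8 of 32 higher, 8 lower and 16 that missed the threshold. FN1, fibronectin, stood at 11959, 28232, 18278 and 18539.7 CPM in number 5 and 4955, 6492, 5056 and 7412 CPM in number 8, and all 4 conditions fell (log2FC of -1.64, SE 0.13, adjusted p = 1.66e-04). FBLN2, a matrix glycoprotein, fell by 3.90, with 131 to 268 CPM in number 5 and 4.41 to 24.7 CPM in number 8, and the fibrillin FBN2 by 2.38 log2 units. COL9A2 and COL9A3, chains of type IX collagen, fell by 4.204 and 1.94 log2 units. The proteoglycans VCAN (log2FC of 0.04, adjusted p = 0.864) and GPC3 (log2FC of 0.05, adjusted p = 0.783) missed the threshold.

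Some genes stand in several of the lists above. Among the 20 genes with the largest change in each direction, at a mean of at least 5 CPM, several stood in no list. The cystatin CST1 fell by 4.21 log2 units, with 305 to 523 CPM in number 5 and 6.62 to 36.4 CPM in number 8. The enzyme GAD1, which makes GABA, and the connexin GJA4 fell by 4.30 and 4.49 log2 units. LY75, an endocytic receptor, rose by 2.60 log2 units, and stood at 4.80, 0.712, 1.67 and 2.64 CPM in number 5 and 14.5, 11.2, 15.5 and 15.9 CPM in number 8. The collagenase MMP1 and the LIM protein FHL1 rose by 2.08 and 2.07 log2 units. FHL1 had 6.70 to 19.3 CPM in number 5 and 38.1 to 45.9 CPM in number 8, without overlap. CYP1A1, a target of the aryl hydrocarbon receptor, rose by 1.98, and SLC19A3, a thiamine transporter, by 1.93 log2 units.

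Of the genes of other endoderm fates, most were too low to be tested. RFX6, a factor of pancreas and gut endocrine cells, stood at 30.6, 41.3, 19.2 and 53.3 CPM in number 5 and 192, 83.0, 106 and 163 CPM in number 8, without overlap (log2FC of 1.92, SE 0.24, adjusted p = 9.49e-04). PDX1, a defining factor of pancreas, was too low to be tested, with 0 to 1.19 CPM in number 5 and 0.168 to 4.09 CPM in number 8. Of 7 pancreatic progenitor genes tested 4 rose and 2 fell, but 1 rose and 0 fell without any 1 of the KO or KO_Se libraries, and 2 rose without either WT library. SOX9 rose by 0.56 log2 units, a call lost without either WT_H2O2, either KO or either KO_Se library (adjusted p of up to 0.164). MNX1 fell by 1.82 log2 units, a call lost without either KO or either KO_Se library (adjusted p of up to 0.0690). CDX2, the hindgut factor, had 19.2 to 61.1 CPM in number 5 and 33.2 to 61.6 CPM in number 8 (log2FC of 0.06, adjusted p = 0.857). Of 19 intestinal genes 7 were tested, of which 1 rose (HNF4G) and 1 fell (LGR5), or 28.6% called against 25.1% of all genes tested. Of 16 anterior foregut genes 6 were tested and 4 fell: SOX2 and OTX2, FOXI3 by 1.89 and TBX1 by 1.34 log2 units. The call of TBX1 was lost without either KO or either KO_Se library (adjusted p of up to 0.121).

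Markers of cells outside endoderm were read beside these results. KDR, a receptor of endothelium and early mesoderm, stood at 71.1, 58.1, 93.4 and 51.3 CPM in number 5 and 0.919, 6.37, 13.3 and 5.37 CPM in number 8 (log2FC of -3.51, SE 0.36, adjusted p = 4.10e-04), and the numbers lay far apart. The endothelial genes PECAM1 and CDH5 had 0.474 to 2.03 and 0 to 1.66 CPM in number 5 and 0.714 to 2.57 and 0 to 0.952 CPM in number 8. Of the 22 endothelial and blood genes 4 were tested, of which 2 fell, and the summed level of the list was 109 to 183 CPM in number 5 and 36.9 to 73.5 CPM in number 8. PAX6, a neural and eye factor, fell by 4.22 log2 units. It had 1.11 to 21.6 CPM in number 5 and 0 to 3.19 CPM in number 8. Of 8 neural genes tested 2 fell, PAX6 among them, and 1 rose, or 37.5% called against 25.1% of all genes tested. With 1 library left out, 0 to 2 neural genes rose and 1 to 2 fell. SOX1, a defining neural factor, had 0 to 1.42 and 0 to 0.335 CPM.

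Of 18 mesoderm and mesenchyme genes tested 4 fell and 1 rose, while 4 rose without either WT library and 7 to 8 fell without a WT_H2O2 library. With all libraries 27.8% of the list were called, near the 25.1% of all genes tested. VIM, an intermediate filament of mesenchyme and of cultured cells, rose by 1.55 with no overlap, and TBX20, a heart factor, fell by 2.17 log2 units at low levels. The collagen COL1A1 fell by 0.48 log2 units, a call lost without either WT, either KO or either KO_Se library (adjusted p of up to 0.158). THY1 fell by 1.69 log2 units, a call lost without the number 5 KO_Se library (adjusted p of up to 0.0560). Of 7 germ line genes tested 3 fell, TFAP2C by 0.95 log2 units among them, and 1 fell without either KO or either WT_H2O2 library. HOXB13 fell by 2.32 log2 units among 3 HOX genes tested of 39.

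In the surface ectoderm and amnion list 2 of 14 fell, TFAP2C and GATA3 (by 1.13 log2 units), and 12 missed the threshold. The share called was 14.3%, against 25.1% of all genes tested. Without WT number 5 or WT number 8, 5 of 14 rose, and the median log2FC went from 0.07 to 0.54. GABRP, a GABA receptor subunit high in amnion, stood at 643, 30.6, 198 and 146 CPM in number 5 and 224, 484, 478 and 329.7 CPM in number 8. WT number 5 was the highest library and WT_H2O2 number 5 the lowest (log2FC of 1.16, adjusted p = 0.251). COL3A1, a collagen of fibroblasts, had 499.9, 6.88, 143 and 39.4 CPM in number 5 and 68.7, 279.6, 144 and 28.7 CPM in number 8, with WT number 5 and WT_H2O2 number 8 highest in their numbers. Summed over the list, WT number 5 had 3561 CPM and the other 3 libraries of number 5 had 959 to 1807 CPM, while number 8 ran from 1702 (WT) to 3022 CPM (WT_H2O2). The median difference of this list, number 8 minus 5, was -1.45 in WT, 1.44 in WT_H2O2, 0.37 in KO and -0.27 in KO_Se. WT number 5 is also the library of number 5 with the lowest POU5F1, NANOG and EOMES, and the part of such cells in those levels was not tested.

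**Figure D3:**
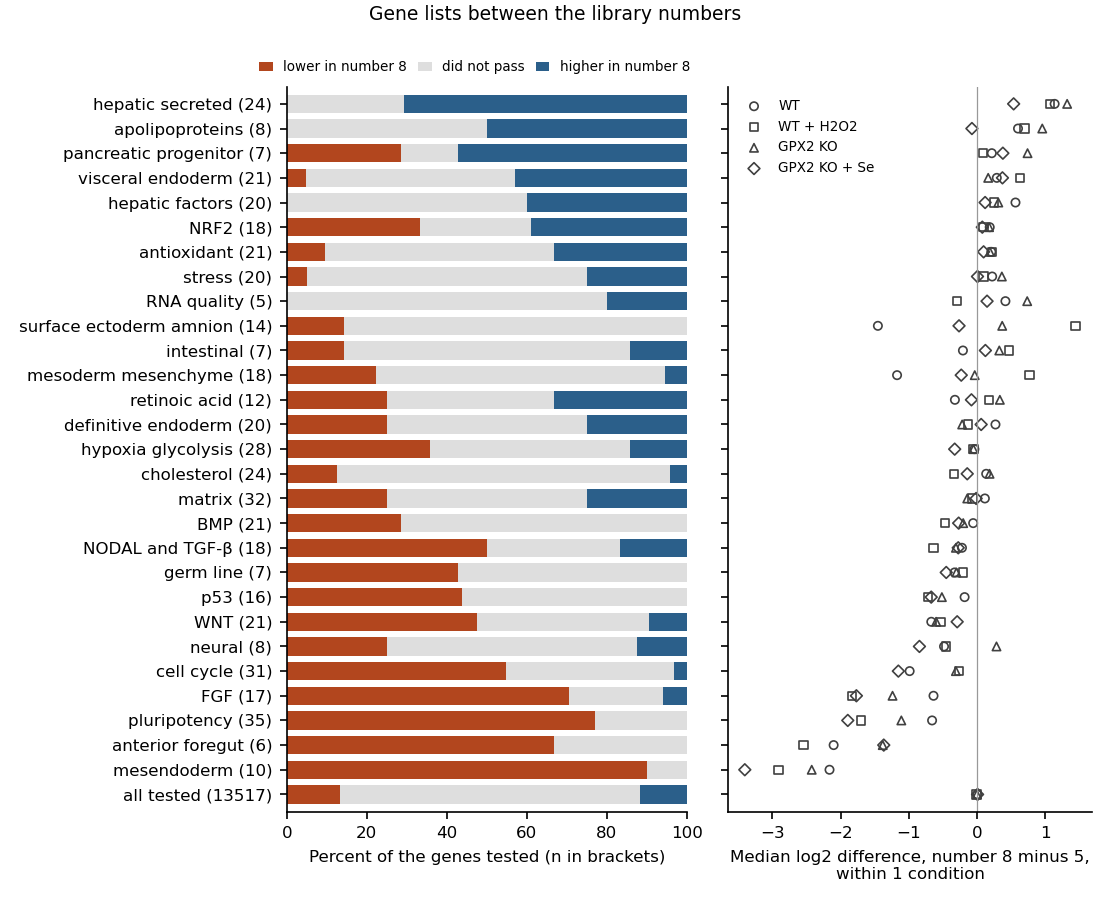
Gene lists with at least 5 genes tested, in order of their median log2 fold change and with all genes tested at the bottom. Left, the percent of genes lower in number 8, not passing and higher in number 8, and right, the median log2 difference within each condition (1 symbol per condition): mesendoderm, pluripotency and FGF genes are lower in all 4 conditions and hepatic secreted genes higher in all 4, while surface ectoderm and amnion genes have a median of -1.45 in WT and 1.44 in WT_H2O2.

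Of 31 cell cycle genes tested 17 fell, 1 rose and 13 missed the threshold, with a median log2FC of -0.68. Without either KO_Se library 8 fell, and 1 fell in the WT and WT_H2O2 libraries alone. CCND1, the cyclin that answers growth signals, stood at 41.2, 71.2, 54.3 and 55.9 CPM in number 5 and 2.02, 7.21, 6.19 and 3.04 CPM in number 8, without overlap (log2FC of -3.68, SE 0.22, adjusted p = 4.99e-05). The mitotic kinase AURKB fell by 1.12 log2 units, a call lost without either KO_Se library (adjusted p of up to 0.0642). PLK1, a further mitotic kinase, fell by 1.06 log2 units, a call lost without the number 5 KO library (adjusted p of up to 0.0505). MKI67, the usual mark of cycling cells, had 169, 128, 102 and 122 CPM in number 5 and 56.4, 137, 83.3 and 37.2 CPM in number 8. WT_H2O2 number 8 lay within the range of number 5, and MKI67 missed the threshold (log2FC of -0.87, adjusted p = 0.0519).

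Of 16 targets of p53 tested 7 fell, 0 rose and 9 missed the threshold. PHLDA3, a p53 target that restrains AKT, stood at 17.5, 49.3, 44.3 and 50.8 CPM in number 5 and 1.84, 5.87, 8.09 and 5.95 CPM in number 8, without overlap (log2FC of -2.94, SE 0.18, adjusted p = 4.99e-05). CDKN1A, the cell cycle inhibitor p21, fell by 1.94, and the death genes BBC3 and BAX by 1.67 and 1.03 log2 units. BTG2 (log2FC of -0.07, adjusted p = 0.795) and TNFRSF10B (log2FC of -0.38, adjusted p = 0.141) missed the threshold.

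Of 21 antioxidant genes tested 7 rose, 2 fell and 12 missed the threshold, with a median log2FC of 0.20. Without either KO library 1 rose and 0 fell, without either KO_Se library 2 rose and 0 fell, and without either WT_H2O2 library 4 rose and 1 fell. GLRX, a glutaredoxin, rose by 0.76 log2 units. The peroxidase GPX8 rose by 0.69 log2 units, a call lost without either KO or either KO_Se library (adjusted p of up to 0.0622). GPX1, the selenoprotein of most tissues, fell by 0.57 log2 units, a call lost without either WT_H2O2, either KO or either KO_Se library (adjusted p of up to 0.136). Of 18 NRF2 targets 7 rose and 6 fell, but 0 and 1 rose and 2 fell without KO number 5 and KO number 8, and 2 rose and 2 to 3 fell without a KO_Se library. SLC7A11, the cystine importer, rose by 0.77, a call lost without either KO or either KO_Se library (adjusted p of up to 0.104), and HMOX1, heme oxygenase, fell by 0.72 log2 units.

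Hypoxia and glycolysis genes were lower in 10 of 28, VEGFA by 1.04 and LDHA by 0.81 log2 units among them, and higher in 4. Without either KO library 3 were lower and 1 higher, without either KO_Se library 4 and 2, and without either WT_H2O2 library 6 and 3. Of 24 genes of cholesterol synthesis 1 rose and 3 fell, and 0 fell without any 1 of the WT_H2O2, KO or KO_Se libraries. The share called was 16.7% for these and 30% for the stress genes that follow, against 25.1% of all genes tested. Of 20 stress genes 5 rose, the immediate early factor ATF3 by 0.92 log2 units among them, and 1 fell, while 2 rose without either KO library and 3 without either WT_H2O2 library. EGR1, a further early factor, rose by 1.47 log2 units, a call lost without either KO library (adjusted p of up to 0.0687). Of 2 metallothionein and zinc genes tested, MT2A fell by 1.94 log2 units, a call lost without either WT, either WT_H2O2 or either KO library (adjusted p of up to 0.102). A list read for RNA quality holds genes of transcripts without a poly(A) tail or kept in the nucleus. Of its 5 genes tested 1 rose, or 20% called against 25.1% of all genes tested. This was NEAT1, a nuclear RNA, by 0.67 log2 units, a call lost without either WT_H2O2 or either KO library (adjusted p of up to 0.0978). The summed level of all 16 genes of this list, tested or not, was 35.8 to 62.2 CPM in number 5 and 59.9 to 88.5 CPM in number 8. The part of RNA quality in the results was not tested.

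The difference between the numbers was seen in every condition, and its size varied. The gap on the first component was 51.6 in WT, 80.0 in WT_H2O2, 68.6 in KO and 71.2 in KO_Se. The genes called lower had a median log2 difference of -0.50 in WT, -0.73 in WT_H2O2, -0.67 in KO and -0.78 in KO_Se, and those called higher had 0.54, 0.71, 0.65 and 0.62. These medians describe genes chosen on the same libraries.

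Fitted alone, the 4 libraries of KO and KO_Se gave 3492 called genes and the 4 of WT and WT_H2O2 gave 77, all 77 of which were among the 3393. The test of the difference itself, an interaction of number with genotype, called 0 genes in edgeR, 0 in limma-voom and 0 in DESeq2, with 162, 164 and 21 genes at an unadjusted p under 0.05. It called 0 genes without any 1 of the KO or KO_Se libraries, but 184 without WT number 5, 213 without WT_H2O2 number 5, 144 without WT number 8 and 246 without WT_H2O2 number 8, where the WT side then rests on 1 condition. No gene is therefore given as differing in its number effect between the genotypes.

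The number also bears on the comparisons between conditions. KO against WT called 0 genes without the number in the fit (edgeR, 162 at an unadjusted p under 0.05, with 0 called in limma-voom and 2 in DESeq2) and 2 (0.0148%) with it as a replicate block: GPX2 (log2FC of -2.06, adjusted p = 0.00631) and LY6E, a small membrane-anchored protein (log2FC of -7.73, adjusted p = 0.0214). LY6E stood at 51.3, 30.6, 0 and 0.330 CPM in number 5 and 44.8, 44.4, 0.476 and 3.27 CPM in number 8, with both KO and both KO_Se libraries far below the WT ones. WT_H2O2 against WT called 0 genes without the block (edgeR, 116 at an unadjusted p under 0.05, with 0 called in limma-voom and 0 in DESeq2) and 17 (0.126%) with it, all higher in WT_H2O2. Among the 17, with their log2FC, were POU5F1 (3.76), NANOG (4.59), PRDM14 (4.73), ESRG (5.15), EOMES (3.26), MIXL1 (4.24) and NODAL (2.40), which are also lower in number 8, and the WT and WT_H2O2 libraries enter both comparisons. KO_Se against KO called 0 genes with and without the block (edgeR, 825 and 120 at an unadjusted p under 0.05, and 0 called in limma-voom and DESeq2 without it).

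The direction of change moved with the base composition of the transcripts. Of 13512 genes with a GC value, put into 4 bins of equal size, the lowest bin (27.8 to 41.7% GC) had 581 genes higher and 132 lower in number 8, and the highest bin (56.0 to 74.2%) had 142 higher and 914 lower. Across genes, which are not independent replicates and share the 8 libraries, Spearman's rho between GC and log2FC was -0.35, against 0.01 for length and 0.01 for mean CPM. With each library corrected for GC, 3170 genes were called, 1500 higher and 1670 lower, of which 2499 were shared with the 3393. Pluripotency genes were then lower in 29 of 35, mesendoderm in 7 of 10 and cell cycle genes in 22 of 31, and hepatic secreted genes were higher in 19 of 24. Beside SOX17, with log2FC and adjusted p after the correction, ONECUT1 (1.20, 0.0688), TBX1 (-0.89, 0.0854), INHBA (1.15, 0.0759), WNT3 (-1.15, 0.0506), COL1A1 (-0.24, 0.342), ID1 (-0.29, 0.0621) and GPX1 (-0.27, 0.177) no longer passed. Whether the GC trend comes from the cultures or from library preparation was not tested.

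By chromosome, the median log2FC ran from -0.15 on chromosome 19 and -0.13 on chromosome 22 to 0.13 on chromosome 4 and 0.16 on chromosome 13. On chromosome 19, 198 genes fell and 54 rose, and on chromosome 4, 43 fell and 92 rose. The share of genes called was 22.8 to 27.7% on the autosomes and the X chromosome.

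**Figure D4:**
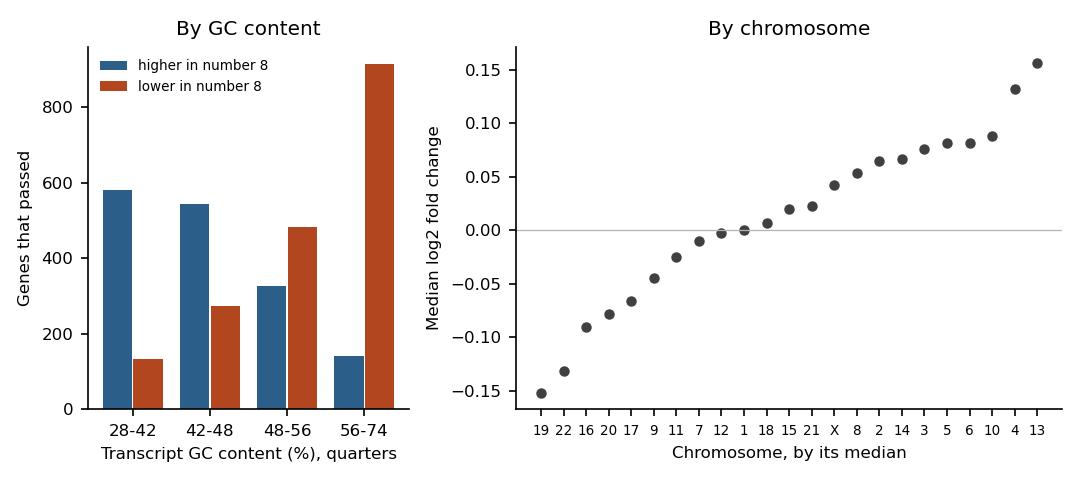
Left, the number of genes higher and lower in number 8 in 4 bins of transcript GC content (percent); right, the median log2 fold change of each chromosome in rising order. Genes higher in number 8 fall from 581 to 142 and genes lower rise from 132 to 914 from the lowest to the highest bin, and chromosomes 19 and 22 stand at the low end.

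ATAC-seq peaks, which mark open chromatin, were given for pooled WT and pooled KO cultures of day 8 (clonal line KO2 per the study), with 222750 and 202374 peaks. They do not part the numbers, so they show only whether chromatin at a given start was open in the genotype. The outermost annotated start of a gene need not be the one in use. A WT peak lay within 1000 bases of the outermost annotated start of 91.3% of the genes higher in number 8, 94.6% of those lower and 92.4% of those that missed the threshold, and a KO peak of 90.4%, 94.3% and 92.1%. NANOG had a peak in both, with a fold over background of 2.49 in WT and 2.55 in KO, and so had EOMES (2.98 and 3.04), MIXL1 (3.11 and 3.23), HNF4A (2.86 and 2.98) and FGA (3.86 and 4.28). Within this distance of the outermost annotated start of POU5F1, at chr6:31180731, a peak was called in KO (2.35) and none in WT. Other starts of POU5F1 were not examined, so this does not show the state of its main promoter. NODAL and AFP had none in either, and the outermost annotated start of AFP differs from the RefSeq start used above.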

How the data were processed

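Bulk RNA-seq counts of the 8 day 8 libraries were used. Per the study's methods, the authors trimmed reads with fastp, aligned them with STAR and ran featureCounts (version 2.0.1 and Ensembl release 108 of GRCh38 per the file headers) on read pairs without regard to strand. The deposited table holds raw counts of 62703 genes, of which 62625 were matched to a symbol. Reads of overlapping and antisense genes cannot be told apart. The gene length beside the counts (an other value, in bases, as deposited by the authors) served for levels per length. The 8 libraries carry a WT genotype label, so KO was taken from their titles. The authors called ATAC peaks with MACS2 on the merged libraries of a genotype, and the fold over background and the -log10 q were used as deposited.

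Genes were kept by filterByExpr (minimum count 10, grouped by number), scaled by TMM and tested with the quasi-likelihood F test of edgeR 4.0.16 in R 4.3.3, with condition and number in the model and Benjamini-Hochberg adjustment over 13517 genes (threshold 0.05). Every adjusted p is from this fit unless another is named. SE is that of the log2 fold change. With 3 residual degrees of freedom, p-values measure only the spread between these libraries, which may be technical. Alternatives used limma-voom (limma 3.58.1) and DESeq2 1.42.0, other filters and scalings, each library or condition left out, and a lowess correction for transcript GC content. The fits were tested on simulated data.

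The numbers come from the column headers. Across genes, the difference of number 8 minus 5 in a condition correlated with that in every other condition (0.340 to 0.694), so the numbers were taken to pair the libraries. The lowest value was that of WT with WT_H2O2. In log2 CPM, WT number 5 correlated more with WT_H2O2 number 8 (0.969) than with WT_H2O2 number 5 (0.946) or KO_Se number 5 (0.961), and less than with KO number 5 (0.971).

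The members, the 31 gene lists, the 32 anchor genes and the tests were chosen with earlier results of these data known. Named are the anchors, the 20 genes of largest change in each direction (passing, at least 5 CPM, the same direction in 4 conditions), in each list up to 6 called genes of largest change and up to 2 not passing genes of highest level, and up to 10 genes of the interaction. The other genes given by name (ALB, AXIN2, CDH5, COL3A1, FGF4, GABRP, LY6E, PECAM1, SOX1 and TBXT) were chosen after their values were seen, as were the GC correction and the other tools for the comparisons between conditions. Single-cell and day 6 files were not used here. Some named genes are not reported here.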

Additional observations from a re-analysis of the deposited data

Results flagged for a closer look

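In 68 groups of 4 libraries, the anchor genes, the first principal component and the total counts within each number, the gap of the highest or lowest library to the others was compared with the range of the group, which chance alone marks in about 1 group of 20. Among them 2 stood apart, no more than chance alone would mark at this rate. DNMT3B was 136 CPM in WT_H2O2 number 8, while the other 3 libraries of number 8 had 74.0 to 83.3 CPM. AFP was 1602 CPM in KO_Se number 5, while the other 3 libraries of number 5 had 480.4 to 559 CPM.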

How the results depend on the processing

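Against 3393 genes called, the fits without both KO libraries, without both KO_Se libraries and with the WT and WT_H2O2 libraries alone called 1375, 1669 and 77, and 940 changed by at least 1 log2 unit as well. With 1 library left out the count ran from 1431 to 4154. The fit has fewer samples there. The other alternatives gave 2381 to 4260 genes, with DESeq2 at 2641, limma-voom at 3482 and the GC correction at 3170. Of the 228 named genes tested, 11 lost their call in DESeq2, 3 in limma-voom, 13 without the condition term (SERPINA1, FGG, AHSG and CEBPA among them) and 132 in the WT and WT_H2O2 libraries alone. The interaction called 5 genes with no filter beyond 1 count and 0 to 246 with 1 library left out. With the library number as a replicate block, KO against WT called 2 genes (2 as well in DESeq2 without the block) and WT_H2O2 against WT 17, against 0 for both without it, and the pairing changed no other call. The cause of these shifts was not tested. At 4234408 to 8617728 counts per library, genes at a few CPM rest on few reads.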
